A study of Caenorhabditis elegans with 9 samples.

Results

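The genes described here are those of the cilium and of intraflagellar transport in embryos of the nematode Caenorhabditis elegans. They are the genes whose symbol begins with bbs-, ift-, ifta-, dyf-, mks-, nphp-, xbx- or dylt-, together with osm-1, osm-3, osm-5, osm-6, che-2, che-3, che-10, che-11, che-12, che-13, daf-10, daf-19, kap-1, klp-11, klp-20, arl-13 and tub-1. The RefSeq gene table of assembly WBcel235 holds 59 such genes. Of these, 55 had an array probe set annotated to that gene alone, among 17118 genes measured in this way; ift-20, bbs-4, mks-2 and nphp-2 had none and were not measured. Each gene was read from its brightest probe set. Of the 55, 9 lie on the X chromosome (che-2, dyf-6, dyf-7, dyf-11, dylt-2, ift-81, ifta-1, osm-1 and osm-5), and 46 lie on autosomes.

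A cilium is a projection of the cell built around microtubules, and in C. elegans it is found at the dendrite endings of a subset of sensory neurons. Intraflagellar transport (IFT) builds it: kinesin motors carry particles of the IFT-A and IFT-B complexes and the attached BBSome outward, and the dynein-2 motor carries them back. At the base, the proteins of the transition zone form a gate between the cilium and the rest of the cell. The RFX-type factor DAF-19 switches on many of these genes in ciliated neurons through a promoter element called the X-box.

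Total RNA of mixed-stage embryos of XX worms was hybridised to Affymetrix arrays, 3 in each group. For the control, N2 wild-type worms were kept for 96 hours on bacteria that carry L4440, an RNAi vector with no insert. For the group called smo-1 RNAi, N2 worms ate bacteria with double-stranded RNA to smo-1, which encodes the protein modifier SUMO. The third group, called sdc-2(y93)+RNAi, came from worms with the sdc-2 allele y93 that were fed sdc-2 RNAi bacteria, per its sample labels; SDC-2 recruits the dosage compensation complex, which lowers X-chromosome expression in XX animals. The growth protocol names a plasmid against smo-1 for both RNAi groups, so the labels and the protocol differ on what the third group was fed. Worms of both these groups ate HB101 bacteria for 24 hours before 72 hours of RNAi feeding, so food and time on RNAi plates cannot be told apart from the treatments. All were grown at 20 °C. The embryos were pools of all stages and cell types, and in such bulk RNA fewer cells of a type and less RNA per cell cannot be told apart. Nothing in the labels says that replicates were separate cultures, so the spread between them may be technical.

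All values are log2 levels made by RMA, and all differences are log2 differences with the standard error of limma's fit over the 9 arrays. A difference was called past an adjusted p of 0.05 over all genes. The smo-1 messenger was 12.7-fold lower than control in smo-1 RNAi embryos and 2.07-fold lower in sdc-2(y93)+RNAi embryos (adjusted p = 6.5e-08 and 0.00094, limma). The brighter sdc-2 probe set differed from control by -0.35 ± 0.16 (adjusted p = 0.14, limma) in sdc-2(y93)+RNAi embryos. The gene her-1, a target that SDC-2 represses, read 5.57-fold above control in the same embryos (adjusted p = 4.2e-07, limma). In smo-1 RNAi embryos her-1 read 1.25-fold above control (adjusted p = 0.032, limma). That call was lost without control replicate 2 or 3 or smo-1 RNAi replicate 2 or 3. The manufacturer's hybridisation controls, which are added to the sample and are not worm RNA, read between 6.93 and 12.75 on the sdc-2(y93)+RNAi arrays and between 4.93 and 5.46 on the other 6 arrays. Array processing and the sdc-2(y93)+RNAi group therefore cannot be told apart. Between the 3' and 5' probe sets of actin the signal gap was 0.79 to 0.98 on the control arrays and 1.31 to 1.84 on the other 6 arrays. The other such pairs moved differently: the mean gap differed from control, with smo-1 RNAi and in sdc-2(y93)+RNAi embryos in turn, by -0.26 and 0.52 for GAPDH, 0.32 and 0.34 for ubiquitin, and 0.86 and -0.08 for catalase. The part of RNA quality in the results was not tested.

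The 55 cilium genes had mean signals from 4.88 to 11.34, with a median of 7.0 against 6.65 over all genes. The signal of 33 of them, 7 X-linked and 26 autosomal, was above 6.65. On all 9 arrays 2 members stayed at or below 5.76, the 95th percentile of the 27 probe sets for Bacillus transcripts that worm RNA does not contain. A total of 13 members, among them nphp-1, osm-5, klp-11, kap-1 and daf-19, were read by probe sets that can also bind related transcripts.

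In smo-1 RNAi embryos more cilium genes were lower than higher. Of the 55, 23 were lower and 3 were higher than in control embryos, which is 41.8% and 5.45%, and 29 did not pass. Over all genes, 22.2% were lower and 17.8% were higher. The lower ones were all autosomal: 23 of 46 autosomal members fell (50%) against 23.8% of all autosomal genes, with a median difference of -0.33 against -0.02. Bright autosomal genes were called lower more often as a class: 14 of the 26 brighter autosomal members were lower (53.8%) against 42.1% of all autosomal genes above the median signal, with medians of -0.50 and -0.24. Among dimmer autosomal genes, 9 of 20 members were lower (45.0%) against 6.45% of all such genes. These members were not matched in signal to all such genes: median levels on the control arrays were 6.28 to 6.47 and 5.38. The latter lies below the Bacillus level of 5.76, so the 2 shares are not a like-for-like comparison. None of the 9 X-linked members passed the test in either direction, while 34.8% of all X-linked genes were higher and 12.2% lower. The X-linked members had a median of -0.20 against 0.14 for all X-linked genes. These are values of the brightest probe sets: second, dimmer probe sets of the X-linked osm-5 and dyf-7 were lower, by -0.53 and -0.37.

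How many members counted as lower depended on how arrays were scaled to each other. Centring each array on its autosomal genes shifted the median of all genes by -0.13 for smo-1 RNAi and gave 3 higher and 32 lower members. Centring on autosomal genes above the median signal moved all genes by 0.20 and gave 5 higher and 16 lower. Without the control array of replicate 2, on which the members read highest, the median of the autosomal members was -0.24.

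**Figure D1:**
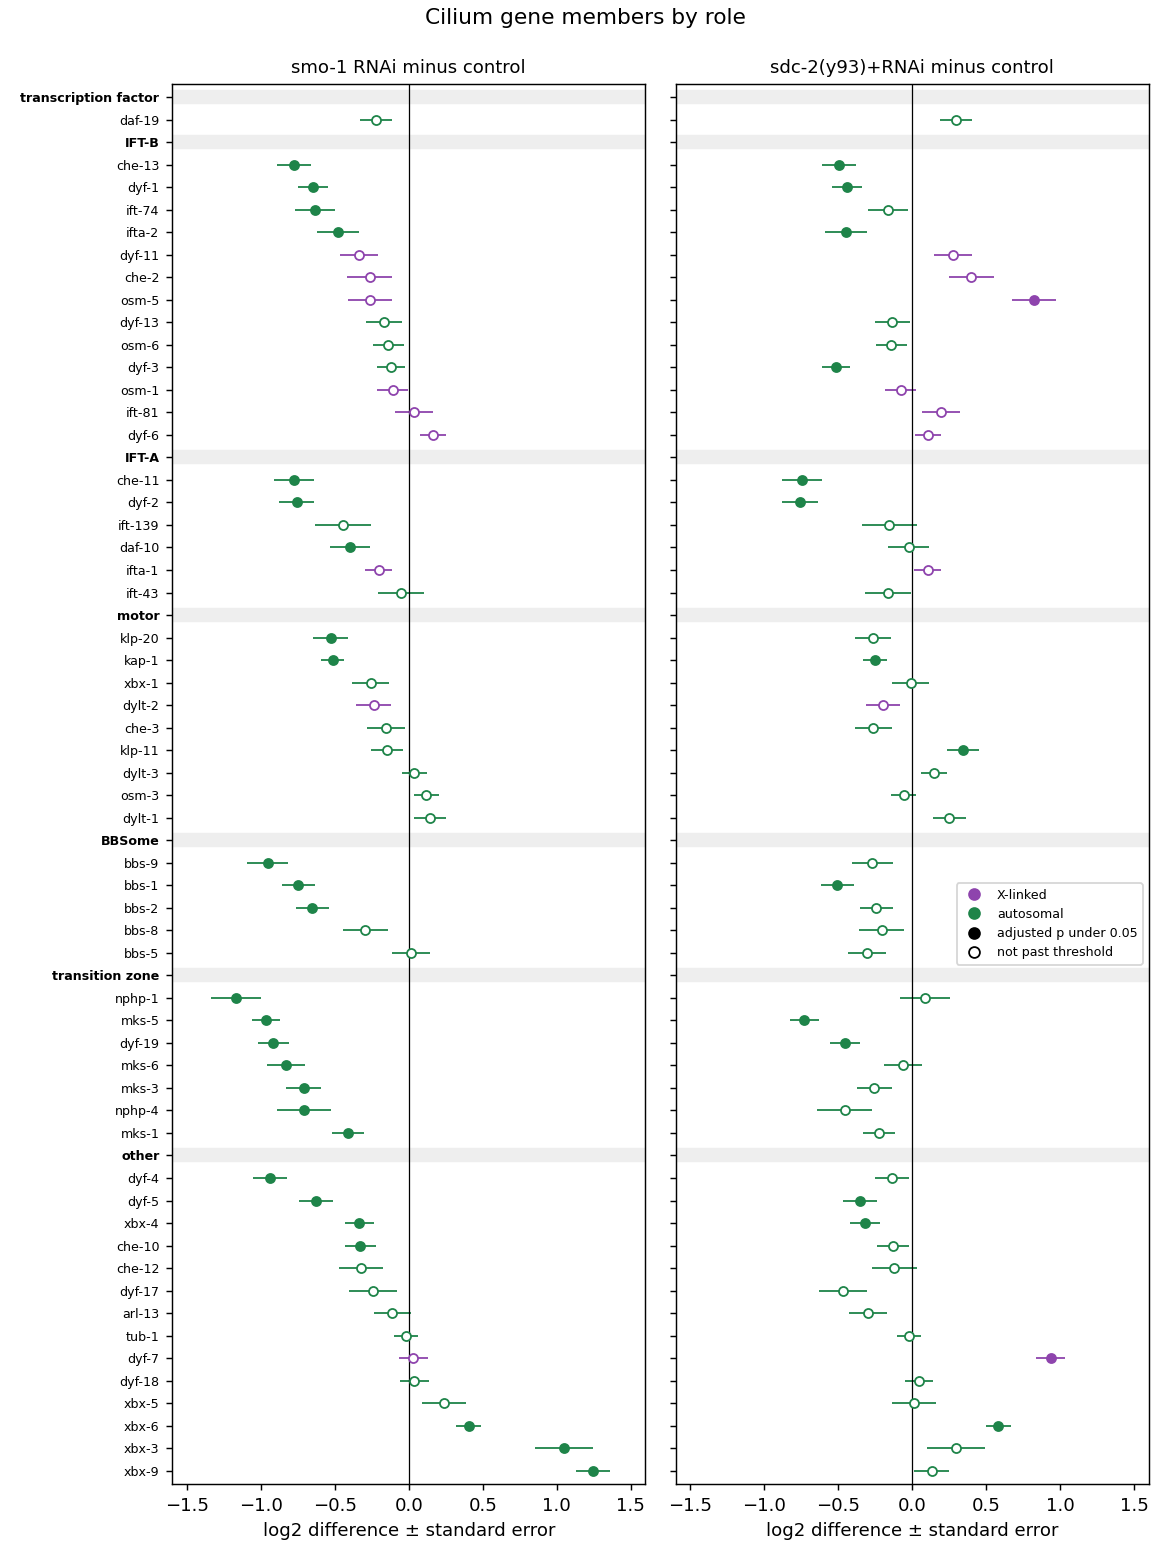
Log2 difference from control (x axis) of the 55 cilium genes, grouped by role, in smo-1 RNAi (left) and sdc-2(y93)+RNAi embryos (right); bars are standard errors of the limma fit, purple marks X-linked and green autosomal genes, and filled points passed an adjusted p of 0.05. All 7 transition zone and fibre genes lie left of 0 and are filled in the left panel, where xbx-9, xbx-3 and xbx-6 are the filled points on the right; centring arrays on autosomal genes above the median signal moves every point right by 0.20 (left panel) or 0.26 (right panel).

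Among the role groups of the members, the most uniform difference was in that of the gate at the ciliary base. All 7 measured members of the transition zone and its fibres were lower in smo-1 RNAi embryos, by a median of -0.83. Every smo-1 RNAi array lay below every control array for all 7, as it did for 29.3% of all genes. With arrays centred on autosomal genes above the median signal, called bright here, the median was -0.63 and mks-1 and nphp-4 missed the threshold. The rule does not take in all genes of the gate. Of 15 measured transition zone and ciliary base genes outside the member families, described below, 7 were lower in smo-1 RNAi embryos, at a median of -0.22. NPHP-1 and NPHP-4 are the nephrocystins of the gate, and the MKS proteins form the other transition zone module.

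nphp-1 read 8.08, 8.53 and 8.21 on the control arrays, 7.11, 6.81 and 7.40 on the smo-1 RNAi arrays and 8.12, 8.51 and 8.44 on the sdc-2(y93)+RNAi arrays. Each smo-1 RNAi array lay below every other array, and the control and sdc-2(y93)+RNAi arrays overlapped. The nphp-1 difference from control was -1.17 ± 0.17 (adjusted p = 0.00027, limma) in smo-1 RNAi embryos, a 2.24-fold lower level, and 0.09 ± 0.17 (adjusted p = 0.78, limma) in sdc-2(y93)+RNAi embryos. Its probe set can bind related transcripts.

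mks-5, whose product is the scaffold on which the other transition zone proteins assemble, read 8.51, 8.64 and 8.61 on the control arrays, 7.79, 7.54 and 7.54 on the smo-1 RNAi arrays and 7.89, 7.78 and 7.91 on the sdc-2(y93)+RNAi arrays. Both treated groups lay below control, and they overlapped each other. The mks-5 difference was -0.97 ± 0.10 (adjusted p = 2.0e-05, limma) with smo-1 RNAi and -0.73 ± 0.10 (adjusted p = 0.00036, limma) in sdc-2(y93)+RNAi embryos. mks-6, which encodes another MKS module protein, read 7.14, 7.57 and 7.17 on the control arrays, 6.42, 6.39 and 6.58 on the smo-1 RNAi arrays and 7.13, 7.38 and 7.17 on the sdc-2(y93)+RNAi arrays. Only the smo-1 RNAi arrays were low, with a difference from control of -0.83 ± 0.13 (adjusted p = 0.00038, limma); for sdc-2(y93)+RNAi embryos the 95% interval of the mks-6 difference was -0.34 to 0.22.

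dyf-19, a gene of the transition fibres that anchor the ciliary base, read 7.32, 7.56 and 7.41 on the control arrays, 6.47, 6.59 and 6.48 on the smo-1 RNAi arrays and 7.15, 6.88 and 6.89 on the sdc-2(y93)+RNAi arrays. The 3 groups did not overlap: control was highest and smo-1 RNAi lowest. Its differences from control were -0.92 ± 0.10 (adjusted p = 4.7e-05, limma) and -0.45 ± 0.10 (adjusted p = 0.0078, limma). mks-3, mks-1 and nphp-4 were also lower in smo-1 RNAi embryos, by -0.71, -0.41 and -0.71, and a second probe set of nphp-4 gave -0.57. These 3 genes did not pass the test in sdc-2(y93)+RNAi embryos, where they read -0.26, -0.23 and -0.46 against control.

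**Figure D2:**
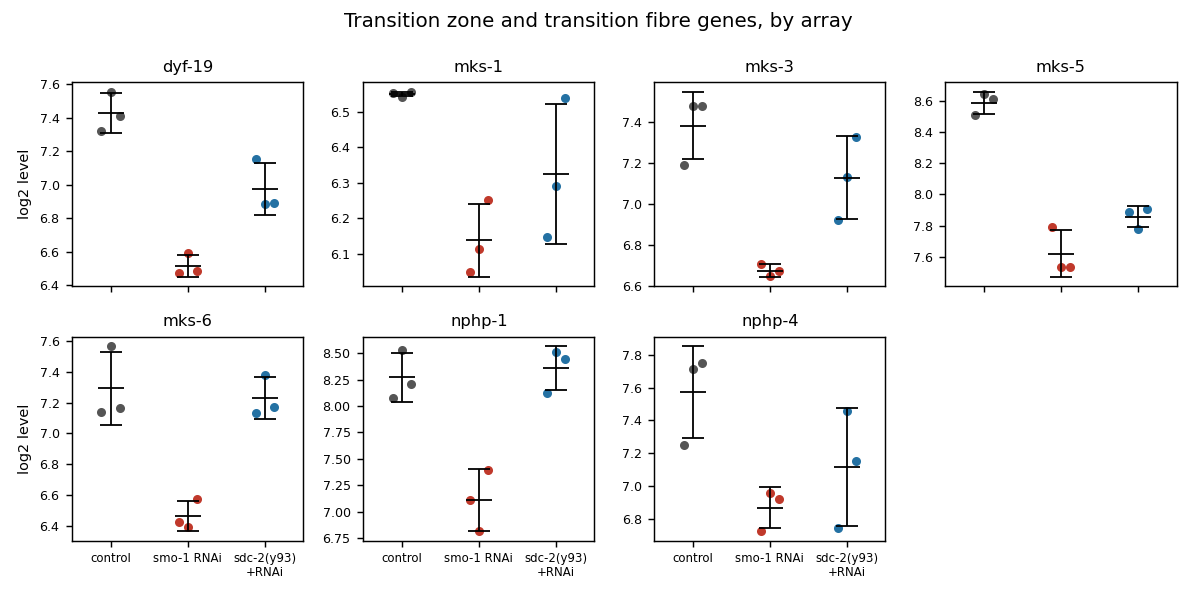
Log2 level (y axis, with its own range in each panel) of the 7 transition zone and transition fibre genes on every array of the 3 groups; points are arrays and the black marks are the mean ± SD of 3 arrays. For all 7 genes the smo-1 RNAi arrays lie below all control arrays, while nphp-1 and mks-6 overlap control in sdc-2(y93)+RNAi embryos.

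The BBSome is a coat complex that moves with the IFT particles and carries membrane proteins. Of its 5 measured genes, 3 were lower in smo-1 RNAi embryos (60% against 22.2% of all genes). In sdc-2(y93)+RNAi embryos 1 was lower, and this 20% lies near the 15.6% of all genes. bbs-9 read 6.46, 6.97 and 6.64 on the control arrays, 5.71, 5.62 and 5.89 on the smo-1 RNAi arrays and 6.28, 6.43 and 6.55 on the sdc-2(y93)+RNAi arrays. The smo-1 RNAi arrays were the lowest and did not overlap the others, with a difference from control of -0.95 ± 0.14 (adjusted p = 0.00025, limma); the difference in sdc-2(y93)+RNAi embryos was -0.27 ± 0.14 (adjusted p = 0.2, limma). bbs-1 read 7.17, 7.34 and 7.19 on the control arrays, 6.62, 6.44 and 6.40 on the smo-1 RNAi arrays and 6.83, 6.83 and 6.53 on the sdc-2(y93)+RNAi arrays. Both treated groups lay below control, by -0.75 ± 0.11 (adjusted p = 0.00029, limma) and -0.51 ± 0.11 (adjusted p = 0.006, limma), and they overlapped each other. bbs-2 was lower with smo-1 RNAi by -0.65, whereas bbs-8 at -0.29 and bbs-5 at 0.01 did not pass.

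The IFT-A complex, needed for return transport, had 3 of 6 genes lower in smo-1 RNAi embryos and 2 in sdc-2(y93)+RNAi embryos. This is 50% and 33.3%, against 22.2% and 15.6% of all genes. che-11 read 6.94, 7.19 and 7.02 on the control arrays, 6.48, 6.04 and 6.30 on the smo-1 RNAi arrays and 6.25, 6.15 and 6.52 on the sdc-2(y93)+RNAi arrays, so that every treated array lay below every control array. Its differences from control were -0.78 ± 0.14 (adjusted p = 0.00089, limma) and -0.74 ± 0.14 (adjusted p = 0.0021, limma). dyf-2 read 6.78, 6.94 and 6.93 on the control arrays, 6.23, 6.08 and 6.07 on the smo-1 RNAi arrays and 6.38, 5.92 and 6.08 on the sdc-2(y93)+RNAi arrays, again with both treated groups below control and overlapping each other. The dyf-2 differences were -0.76 ± 0.12 (adjusted p = 0.00048, limma) and -0.76 ± 0.12 (adjusted p = 0.00097, limma); a second, dimmer probe set of dyf-2 gave -0.16 and 0.01, and neither passed. che-11 and dyf-2 stayed lower in both groups when arrays were centred on bright autosomal genes. daf-10 was lower with smo-1 RNAi only by -0.40 ± 0.14 (adjusted p = 0.04, limma), a call that was lost when any 1 of the 6 arrays of these groups was left out. The X-linked ifta-1, together with ift-43 and ift-139, passed in neither comparison with control.

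The IFT-B complex drives outward transport, and its 13 measured genes are described here by chromosome. Of the 7 autosomal ones, 4 were lower in smo-1 RNAi embryos and 4 in sdc-2(y93)+RNAi embryos (57.1% in each, against 23.8% and 17.8% of all autosomal genes), with medians of -0.48 and -0.44. Of the 6 X-linked ones, none passed with smo-1 RNAi, at a median of -0.19, and 1 was higher with the sdc-2 mutation and RNAi (16.7% against 36.6% of all X-linked genes), at a median of 0.23. The X-linked and autosomal IFT-B genes overlapped with smo-1 RNAi, from -0.34 to 0.16 and from -0.77 to -0.12, and their difference was not tested. With arrays centred on bright autosomal genes, 3 IFT-B genes were lower and 1 higher with smo-1 RNAi, and none lower and 5 higher in sdc-2(y93)+RNAi embryos.

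Among the autosomal IFT-B genes, che-13 read 7.27, 7.46 and 7.12 on the control arrays, 6.65, 6.41 and 6.46 on the smo-1 RNAi arrays and 6.68, 6.75 and 6.93 on the sdc-2(y93)+RNAi arrays. Every treated array was below every control array, by -0.77 ± 0.12 (adjusted p = 0.00032, limma) and -0.49 ± 0.12 (adjusted p = 0.0089, limma) in the fit, and a second probe set of che-13 gave -0.54 and -0.32. dyf-3 read 6.47, 6.51 and 6.54 on the control arrays, 6.54, 6.30 and 6.32 on the smo-1 RNAi arrays and 6.09, 6.01 and 5.88 on the sdc-2(y93)+RNAi arrays. Here the sdc-2(y93)+RNAi arrays alone were low, with differences of -0.12 ± 0.10 (adjusted p = 0.38, limma) and -0.51 ± 0.10 (adjusted p = 0.0024, limma). ifta-2, a Rab-like small GTPase, read 7.49, 7.93 and 7.62 on the control arrays, 7.41, 7.06 and 7.13 on the smo-1 RNAi arrays and 7.27, 7.05 and 7.38 on the sdc-2(y93)+RNAi arrays. Both treated groups were below control, by -0.48 ± 0.14 (adjusted p = 0.019, limma) and -0.45 ± 0.14 (adjusted p = 0.039, limma). The first call of ifta-2 was lost without control replicate 2 or smo-1 RNAi replicate 2 or 3, and the second without control replicate 2 or 3, smo-1 RNAi replicate 3 or sdc-2(y93)+RNAi replicate 1 or 2. With arrays centred on bright autosomal genes the ifta-2 differences were -0.28 and -0.18, and neither passed. dyf-1, which links the second kinesin to the IFT particle, was lower in both groups, by -0.65 and -0.44. ift-74 was lower by -0.63 with smo-1 RNAi and read -0.16 in sdc-2(y93)+RNAi embryos. The autosomal osm-6 and dyf-13 passed in neither comparison.

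The motors varied among themselves. Outward transport uses the heterotrimeric kinesin-II, made of KLP-11, KLP-20 and KAP-1, and the homodimeric kinesin OSM-3; CHE-3 is the heavy chain of dynein-2. Of the 9 motor genes, 2 were lower in smo-1 RNAi embryos, both of kinesin-II, and in sdc-2(y93)+RNAi embryos 1 was higher and 1 lower. These shares lie near those of all genes: 22.2% lower against 22.2% with smo-1 RNAi, and 11.1% in each direction against 10.9% higher and 15.6% lower in sdc-2(y93)+RNAi embryos. The median of the 9 was -0.16 with smo-1 RNAi, and turned to 0.04 with arrays centred on bright autosomal genes.

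klp-20 read 9.42, 9.49 and 9.22 on the control arrays, 9.06, 8.87 and 8.62 on the smo-1 RNAi arrays and 9.15, 9.09 and 9.09 on the sdc-2(y93)+RNAi arrays. Control was above both treated groups, and the smo-1 RNAi group lay lowest. The klp-20 difference was -0.53 ± 0.12 (adjusted p = 0.0045, limma) with smo-1 RNAi and -0.27 ± 0.12 (adjusted p = 0.14, limma) in sdc-2(y93)+RNAi embryos; the first call was lost with arrays centred on bright autosomal genes. kap-1 was lower in both, by -0.52 ± 0.08 (adjusted p = 0.00042, limma) and -0.25 ± 0.08 (adjusted p = 0.04, limma); the second call was lost in 8 of 9 cases when 1 array was left out, and kept without sdc-2(y93)+RNAi replicate 2. klp-11 read 11.11, 11.14 and 11.03 on the control arrays, 10.91, 10.87 and 11.05 on the smo-1 RNAi arrays and 11.29, 11.66 and 11.37 on the sdc-2(y93)+RNAi arrays. Its sdc-2(y93)+RNAi arrays were above control, by 0.34 ± 0.11 (adjusted p = 0.038, limma), a call lost in 7 of 9 cases when 1 array was left out, and kept without smo-1 RNAi replicate 3 or sdc-2(y93)+RNAi replicate 1. The 4 klp-11 probe sets disagreed: for sdc-2(y93)+RNAi embryos they ranged from -0.52 to 0.52 with calls in both directions, and for smo-1 RNAi embryos from -0.90 to -0.15.

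osm-3 read 6.26, 6.28 and 6.17 on the control arrays, 6.28, 6.32 and 6.47 on the smo-1 RNAi arrays and 6.20, 6.17 and 6.17 on the sdc-2(y93)+RNAi arrays. Both treated groups overlapped control, while the smo-1 RNAi arrays lay above the sdc-2(y93)+RNAi arrays by 0.18 ± 0.08 (adjusted p = 0.14, limma), which did not pass. The intervals of the osm-3 difference from control were -0.07 to 0.31 with smo-1 RNAi and -0.25 to 0.13 in sdc-2(y93)+RNAi embryos. che-3 read 8.32, 8.65 and 8.23 on the control arrays, 8.39, 8.15 and 8.19 on the smo-1 RNAi arrays and 7.98, 8.24 and 8.19 on the sdc-2(y93)+RNAi arrays. Here all groups overlapped, with intervals of -0.44 to 0.13 and -0.54 to 0.02. The other dynein genes, xbx-1 for a light intermediate chain and dylt-1, dylt-2 and dylt-3 for Tctex-type light chains, passed in neither comparison; a second dylt-1 probe set, however, was lower in both, by -0.46 and -0.54.

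daf-19, the RFX factor gene, read 11.23, 11.33 and 11.16 on the control arrays, 11.13, 10.98 and 10.94 on the smo-1 RNAi arrays and 11.39, 11.74 and 11.47 on the sdc-2(y93)+RNAi arrays. The 3 groups did not overlap, smo-1 RNAi being lowest and sdc-2(y93)+RNAi highest. The daf-19 differences from control were -0.22 ± 0.11 (adjusted p = 0.14, limma) and 0.30 ± 0.11 (adjusted p = 0.071, limma), so neither passed, and the difference between the treated groups was -0.52 ± 0.11 (adjusted p = 0.0033, limma). A second daf-19 probe set was lower by -0.90 in smo-1 RNAi embryos and read -0.01 in sdc-2(y93)+RNAi embryos. Both probe sets can bind related transcripts, and which daf-19 isoforms each reads was not analysed here.

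Of the 14 remaining genes, 4 were lower and 3 were higher in smo-1 RNAi embryos, and 2 were lower and 2 higher in sdc-2(y93)+RNAi embryos. These shares lie near those of all genes: 28.6% lower and 21.4% higher against 22.2% and 17.8% with smo-1 RNAi. In sdc-2(y93)+RNAi embryos they were 14.3% in each direction against 15.6% lower and 10.9% higher. The 3 higher genes with smo-1 RNAi all bear the name xbx, given for an X-box in the promoter. xbx-9 read 6.08, 6.26 and 6.11 on the control arrays, 7.27, 7.35 and 7.56 on the smo-1 RNAi arrays and 6.07, 6.38 and 6.38 on the sdc-2(y93)+RNAi arrays. The smo-1 RNAi arrays were far above all others, a 2.37-fold higher level and a difference of 1.24 ± 0.12 (adjusted p = 1.2e-05, limma); the difference in sdc-2(y93)+RNAi embryos was 0.13 ± 0.12 (adjusted p = 0.51, limma). xbx-3 read 6.07, 6.16 and 5.70 on the control arrays, 6.59, 7.36 and 7.12 on the smo-1 RNAi arrays and 6.08, 6.23 and 6.49 on the sdc-2(y93)+RNAi arrays, with the smo-1 RNAi arrays again above all others and widely spread. The xbx-3 differences were 1.05 ± 0.20 (adjusted p = 0.0014, limma) and 0.29 ± 0.20 (adjusted p = 0.35, limma).

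xbx-6 read 10.63, 10.55 and 10.66 on the control arrays, 11.03, 10.96 and 11.06 on the smo-1 RNAi arrays and 11.24, 11.10 and 11.25 on the sdc-2(y93)+RNAi arrays. Both treated groups were above control, by 0.40 ± 0.08 (adjusted p = 0.0027, limma) and 0.58 ± 0.08 (adjusted p = 0.00057, limma); its second probe set gave 0.05 and 0.16, and neither passed. The family did not move as a whole: xbx-4 was lower in both groups by -0.33 and -0.32, calls lost in 4 and 6 of 9 cases when 1 array was left out (control replicate 2 or 3 or smo-1 RNAi replicate 3 in both, smo-1 RNAi replicate 1 for the first, and smo-1 RNAi replicate 2 or sdc-2(y93)+RNAi replicate 1 or 3 for the second), and xbx-5 at 0.24 and 0.01 did not pass.

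dyf-4, which acts in the glia-lined channel around the cilia, read 8.52, 8.90 and 8.68 on the control arrays, 7.71, 7.81 and 7.76 on the smo-1 RNAi arrays and 8.43, 8.53 and 8.73 on the sdc-2(y93)+RNAi arrays. Only the smo-1 RNAi arrays were low. Its difference from control was -0.94 ± 0.12 (adjusted p = 8.8e-05, limma), a 1.92-fold lower level, and in sdc-2(y93)+RNAi embryos the interval was -0.39 to 0.12. dyf-5, a kinase of the MAK family, was lower in both groups, by -0.63 and -0.35; the second call was lost in 7 of 9 cases when 1 array was left out and kept without smo-1 RNAi replicate 2 or 3. che-10, the rootletin gene, was lower with smo-1 RNAi by -0.33, a call lost without control replicate 2 or any smo-1 RNAi array, and its second probe set was higher by 0.59, so its direction is uncertain. arl-13, a ciliary small GTPase, tub-1, the Tubby homologue, che-12, dyf-17 and the kinase gene dyf-18 passed in neither comparison.

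In sdc-2(y93)+RNAi embryos, 12 members were lower than control and 4 were higher, which is 21.8% and 7.27% against 15.6% and 10.9% of all genes. This balance turned with the scaling: centring on autosomal genes gave 6 higher and 8 lower, and centring on autosomal genes above the median signal, which moved all genes by 0.26, gave 15 higher and 3 lower. As deposited, the autosomal members had a median of -0.19 and 12 of 46 were lower (26.1%) against 17.8% of all autosomal genes; the median turned to 0.08 under that second centring. The 3 members lower under that centring were mks-5, che-11 and dyf-2; the other 9 (bbs-1, che-13, dyf-1, dyf-3, dyf-5, dyf-19, ifta-2, kap-1 and xbx-4) then missed the threshold.

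The X-linked members read higher than the autosomal ones in sdc-2(y93)+RNAi embryos. Their median was 0.19, and 2 of 9 were higher and none lower, against 36.6% higher and 2.04% lower of all X-linked genes. Among X-linked genes above the median signal, 56.9% were higher and the median was 0.45, and of the 7 members among these 2 were higher. The share of X-linked members that were called higher was thus not above that of the X chromosome. Under centring on bright autosomal genes the median of the X-linked members was 0.45 and 7 of 9 were higher (77.8%), against a median of 0.48 and 72.5% higher of all X-linked genes under the same centring.

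dyf-7, whose zona pellucida-domain protein anchors the growing dendrite tips of sensory neurons, read 10.84, 11.05 and 11.15 on the control arrays, 10.99, 11.15 and 11.004 on the smo-1 RNAi arrays and 11.90, 11.998 and 11.96 on the sdc-2(y93)+RNAi arrays. The sdc-2(y93)+RNAi arrays were far above the other 6, which overlapped. The dyf-7 difference was 0.93 ± 0.10 (adjusted p = 0.0001, limma), a 1.91-fold higher level, and a second probe set gave 0.93 as well. With smo-1 RNAi the first gave 0.03, and the second was lower at -0.37 (adjusted p = 0.029, limma). osm-5, for an IFT-B core protein, read 8.22, 8.68 and 8.41 on the control arrays, 8.24, 8.40 and 7.89 on the smo-1 RNAi arrays and 9.20, 9.33 and 9.25 on the sdc-2(y93)+RNAi arrays. Its sdc-2(y93)+RNAi arrays were also above all others, a 1.77-fold higher level and a difference of 0.82 ± 0.15 (adjusted p = 0.0019, limma). The second osm-5 probe set gave 0.28 in sdc-2(y93)+RNAi embryos, which did not pass (adjusted p = 0.0503, limma), and was lower by -0.53 with smo-1 RNAi.

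The other X-linked members did not pass. che-2 lay above control on every sdc-2(y93)+RNAi array, at 0.40 ± 0.15 (adjusted p = 0.081, limma), and dyf-11 read 0.27 ± 0.13 (adjusted p = 0.16, limma). ift-81, dyf-6 and ifta-1 differed by 0.19, 0.10 and 0.10, while osm-1 at -0.08 and dylt-2 at -0.20 were nearer to or below 0.

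**Figure D3:**
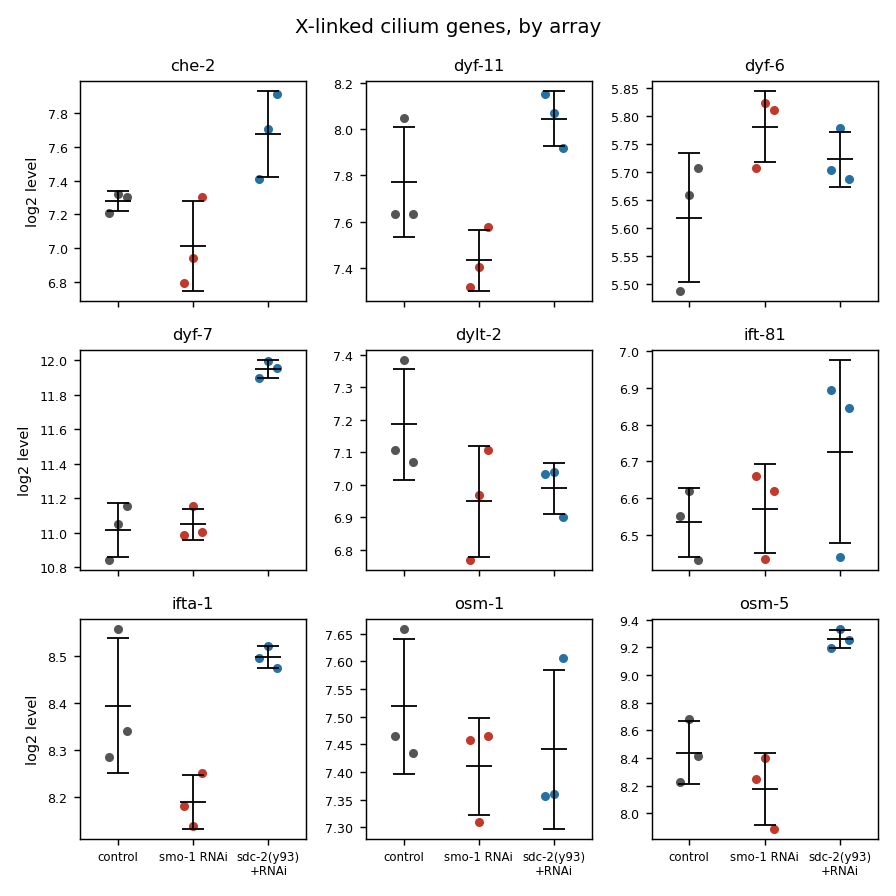
Log2 level (y axis, with its own range in each panel) of the 9 X-linked cilium genes on every array; points are arrays and the black marks the mean ± SD of 3 arrays. In dyf-7, osm-5 and che-2 all sdc-2(y93)+RNAi arrays lie above the other 6, though the che-2 difference from control did not pass. Genes dylt-2, osm-1, dyf-6 and ift-81 show no such gap.

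Set directly against each other, the 2 treated groups differed in 19 members: 16 were lower and 3 higher with smo-1 RNAi than in the sdc-2 group, which is 29.1% and 5.45% against 17.2% and 18.4% of all genes. Centring on autosomal genes gave 32 lower and 2 higher, and centring on bright autosomal genes 17 and 2. Of the 9 X-linked members, 5 were lower (osm-5, dyf-7, che-2, dyf-11 and ifta-1), against 26.9% of all X-linked genes. All 5 were among the 7 X-linked members above the median signal (71.4%), against 42% of all X-linked genes above it. The ifta-1 call was lost without smo-1 RNAi replicate 1 or 2. The 6 largest differences were nphp-1 at -1.25 ± 0.17 (adjusted p = 0.0002, limma), xbx-9 at 1.11 ± 0.12 (adjusted p = 3.5e-05, limma), osm-5 at -1.08 ± 0.15 (adjusted p = 0.00019, limma), dyf-7 at -0.90 ± 0.10 (adjusted p = 5.3e-05, limma), dyf-4 at -0.80 ± 0.12 (adjusted p = 0.00031, limma) and mks-6 at -0.77 ± 0.13 (adjusted p = 0.00075, limma). These 6 were picked by size among the members past the threshold in this comparison, so their size is not a further result. For che-11 and dyf-2, both lower than control in each group, the difference between the treated groups was -0.03 and 0.00. The intervals were -0.33 to 0.27 and -0.27 to 0.27. The comparisons with control share the 3 control arrays, so like values in them are not independent.

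**Figure D4:**
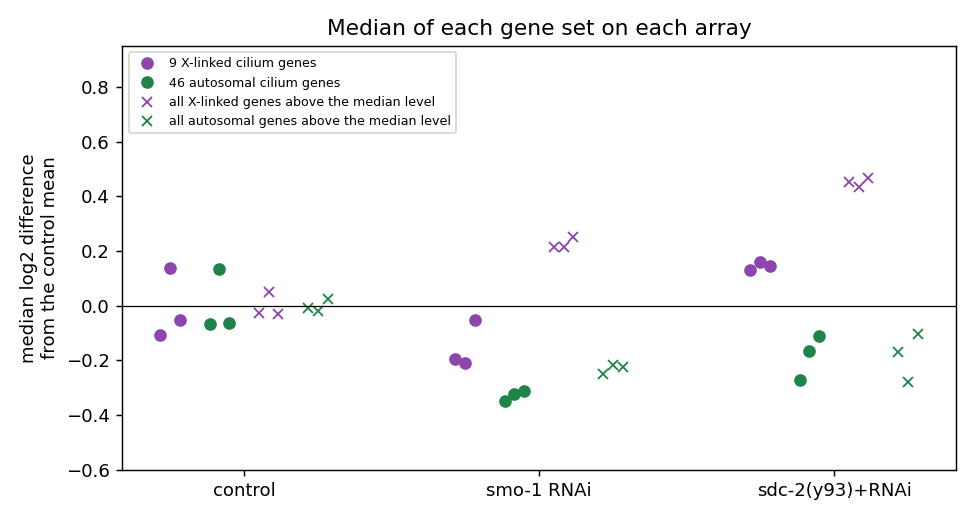
Median log2 difference from the control mean (y axis) of 4 gene sets on each of the 9 arrays (x axis, by group); circles are cilium genes, crosses all genes of the same chromosome class above the median signal, purple X-linked and green autosomal. The autosomal cilium genes lie at -0.35 to -0.31 on the smo-1 RNAi arrays and at -0.27 to -0.11 on the sdc-2(y93)+RNAi arrays. The X-linked cilium genes lie at -0.21 to -0.05 and at 0.13 to 0.16. Circles include members at or below the median signal, so circles and crosses are not matched in signal. For members above it, not drawn, the medians were -0.48 to -0.42 and -0.26 to -0.11 (autosomal). For X-linked members above it they were -0.22 to -0.08 and 0.13 to 0.30.

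Other cilium genes, from lists chosen with earlier results of these data known, were counted beside the members. The lists were not split by chromosome. In sdc-2(y93)+RNAi embryos 36.6% of all X-linked genes were higher, against 6.75% of all autosomal genes, so X-linked genes in a list raise its higher share there. Of 15 measured genes of the transition zone and ciliary base outside the member families, 7 were lower and none higher with smo-1 RNAi. The lower share was 46.7% against 22.2% of all genes, at a median of -0.22, and 3 were lower with arrays centred on bright autosomal genes. The 7 included sas-4, a centriole gene, at -0.70 ± 0.09 (adjusted p = 0.00014, limma), tmem-231 at -0.73 ± 0.15 (adjusted p = 0.0023, limma) and ccep-290 at -0.50 ± 0.12 (adjusted p = 0.0059, limma). With the sdc-2 mutation and RNAi, 3 were lower and 1 higher, or 20% and 6.67% against 15.6% and 10.9% of all genes. This turned to 2 lower and 5 higher under that centring. In the values as deposited, mksr-2 at -0.80 ± 0.14 (adjusted p = 0.002, limma) and elmd-1 at -0.66 ± 0.12 (adjusted p = 0.0018, limma) were lower. The X-linked jbts-14 at 0.48 ± 0.11 (adjusted p = 0.0068, limma) was higher. Of 10 measured ciliary membrane trafficking genes, 6 were lower with smo-1 RNAi (60% against 22.2% of all genes). In sdc-2(y93)+RNAi embryos 7 were lower and 1 higher (70% and 10% against 15.6% and 10.9%). The medians were -0.37 and -0.40, and 3 and 4 genes were lower with arrays centred on bright autosomal genes. Examples are the kinase gene mapk-15 and the small GTPase gene arl-3, at -0.89 and -0.84 with smo-1 RNAi, rab-10 and pdl-1, at -0.70 and -0.71 in sdc-2(y93)+RNAi embryos, and unc-119, a carrier of lipid-modified proteins, at -0.78 and -0.74.

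Of 13 measured ciliary tubulins, tubulin-modifying enzymes and accessory kinesins, 4 were higher and none lower with smo-1 RNAi, at a median of 0.03. This is 30.8% higher against 17.8% of all genes, and it became 3 higher and 3 lower with arrays centred on autosomal genes. The 4 were the alpha-tubulin acetyltransferase genes mec-17 at 1.67 ± 0.16 (adjusted p = 1.1e-05, limma) and atat-2 at 1.33 ± 0.14 (adjusted p = 2.5e-05, limma), ttll-12 at 1.16 ± 0.24 (adjusted p = 0.0026, limma) and tba-9. In sdc-2(y93)+RNAi embryos the X-linked atat-2 and tbb-4 were higher, by 0.92 ± 0.14 (adjusted p = 0.00073, limma) and 0.37 ± 0.09 (adjusted p = 0.012, limma), the latter call being lost without control replicate 1. mec-17 is also known as a gene of touch receptor neurons, which bear no cilia.

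Of 20 measured sensory signalling genes of ciliated neurons, 6 stayed below 5.76 on every array. With smo-1 RNAi 1 was higher and 4 lower, or 5% and 20% against 17.8% and 22.2% of all genes. This balance became 3 higher and 1 lower with arrays centred on bright autosomal genes. In sdc-2(y93)+RNAi embryos 2 were lower (10% against 15.6% of all genes), which became 7 higher under that centring. The diacetyl receptor gene odr-10 was higher, at 1.64 ± 0.17 (adjusted p = 2.7e-05, limma), whereas daf-25 and trx-1 were lower, at -0.76 ± 0.11 (adjusted p = 0.00029, limma) and -0.40 ± 0.09 (adjusted p = 0.0032, limma). With the sdc-2 mutation and RNAi, daf-25 and odr-4 were lower, by -0.39 and -0.31; the daf-25 call was lost without control replicate 1 or 2 or sdc-2(y93)+RNAi replicate 2, and the odr-4 call without control replicate 2 or 3. Of 15 transcription factors of ciliated neurons, 4 were lower and 1 higher with smo-1 RNAi (3 and 3 under centring on bright autosomal genes). The lower share of 26.7% lies near the 22.2% of all genes; lin-11, fkh-8 and ceh-36 differed by -0.97, -0.86 and -0.82. In sdc-2(y93)+RNAi embryos ttx-1 and fkh-2 were higher, by 0.72 and 0.57 (13.3% against 10.9% of all genes). With the mean of all their probe sets they read 0.15 and 0.36 and missed the threshold.

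Markers of other cell types and stages moved in the same samples. Their lists were not split by chromosome either, so higher genes of the sdc-2 group in them can be X-linked. Of 19 pan-neuronal genes, 10 were higher and 2 lower with smo-1 RNAi (median 0.38; 7 and 5 with arrays centred on autosomal genes), and the log2 of their summed signal was 14.08 to 14.22 in control, 14.45 to 14.56 in smo-1 RNAi and 14.19 to 14.35 in sdc-2(y93)+RNAi embryos. Both egl-3 and egl-21, which process neuropeptides, were higher with smo-1 RNAi, by 2.08 ± 0.15 (adjusted p = 1.5e-06, limma) and 1.77 ± 0.12 (adjusted p = 1.2e-06, limma), and the tubulin gene tbb-1 was lower by -1.07. With the sdc-2 mutation and RNAi, 3 were higher and 3 lower, with unc-18 at 1.22, unc-119 at -0.74 and unc-64 at -0.65. This is 15.8% in each direction against 10.9% higher and 15.6% lower of all genes. The gene unc-119 is in this list and in that of the ciliary membrane trafficking genes, and was counted in both. Of 12 markers of touch receptor and motor neurons, which have no cilia, 7 were higher and none lower with smo-1 RNAi, mec-18, cha-1 and mec-7 among them at 0.99, 0.85 and 0.65; the log2 sums were 11.57 to 11.82 in control, 12.12 to 12.17 in smo-1 RNAi and 11.39 to 11.45 in sdc-2(y93)+RNAi embryos. In sdc-2(y93)+RNAi embryos mec-12 was lower by -1.37 and mec-18 higher by 0.42, the latter call being lost without control replicate 1 or 3 or sdc-2(y93)+RNAi replicate 1. With smo-1 RNAi, 52.6% of the pan-neuronal and 58.3% of the touch and motor neuron genes were higher, against 17.8% of all genes.

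Of 10 glial markers, 3 were higher and 2 lower with smo-1 RNAi (1 and 3 with arrays centred on autosomal genes), or 30% and 20% against 17.8% and 22.2% of all genes; grl-2 at -1.33 and ptr-10 at -0.80 were lower, and daf-6, a gene of the channel around the cilia, was higher at 0.51. With the sdc-2 mutation and RNAi, 2 were higher, daf-6 at 0.64 and lit-1 at 0.80, and 2 lower, grl-2 at -0.61 among them. This is 20% in each direction against 10.9% higher and 15.6% lower of all genes. The log2 sums of the glial markers were 11.50 to 11.87, 11.45 to 11.71 and 12.13 to 12.37 in control, smo-1 RNAi and then the sdc-2 group.

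Stage markers were counted as well. Of 12 maternal and early-embryo genes, 7 were lower and 1 higher with smo-1 RNAi, or 58.3% and 8.33% against 22.2% and 17.8% of all genes. The median was -0.72, with puf-3, cpg-1 and oma-1 at -1.31, -1.09 and -1.03. In sdc-2(y93)+RNAi embryos 4 were higher (33.3% against 10.9% of all genes, median 0.40), among them mex-6, mex-5 and spn-4 at 1.03, 0.76 and 1.02. The maternal log2 sums were 13.37 to 13.65 in control, 13.01 to 13.18 in smo-1 RNAi and 13.92 to 14.26 in sdc-2(y93)+RNAi embryos. Of 12 early zygotic genes, 6 were lower with smo-1 RNAi (50% against 22.2% of all genes), vet-6, sdz-28 and pha-4 among them at -1.91, -1.32 and -1.02. In sdc-2(y93)+RNAi embryos sdz-38 was lower at -0.54 and sdz-28 higher at 0.47, or 8.33% in each direction against 15.6% and 10.9%. This sdz-28 call was lost without control replicate 1 or 2 or sdc-2(y93)+RNAi replicate 1 or 3. The early zygotic log2 sums were 11.91 to 12.24, 10.90 to 11.15 and 12.08 to 12.33 in control, smo-1 RNAi and then the sdc-2 group. The summed maternal signals of the 3 groups did not overlap, whereas the early zygotic sums of control and the sdc-2 group did.

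Of 10 intestine markers, 6 were higher and 1 lower with smo-1 RNAi, or 60% and 10% against 17.8% and 22.2% of all genes. The higher ones included cpr-1, asp-6 and ifb-2 at 3.45, 2.51 and 1.27. In sdc-2(y93)+RNAi embryos asp-6 at 0.77 and cpr-1 at 0.72 were higher, and ges-1 at -0.80 was lower. This is 20% and 10% against 10.9% and 15.6% of all genes. Of 10 muscle markers, 7 were higher and 2 lower with smo-1 RNAi, or 70% and 20% against 17.8% and 22.2% of all genes. Among them were tnt-2 and unc-89 at 2.98 and 1.54 and hlh-1 at -1.54. With the mean of all its probe sets unc-89 read 0.20 and missed the threshold. In sdc-2(y93)+RNAi embryos 2 were higher (20% against 10.9%), tnt-2 at 1.01 among them, and 3 were lower (30% against 15.6%). The lower ones included hlh-1 at -1.12 and myo-3 at -0.95. Of 10 epidermis markers, 6 were lower (60% against 22.2% of all genes) and none higher with smo-1 RNAi, with elt-1, dpy-7 and lin-26 at -1.08, -0.78 and -0.73. In sdc-2(y93)+RNAi embryos nhr-25 at 1.09 and lin-26 at 0.50 were higher and dpy-7 at -1.03 was lower (20% and 10% against 10.9% and 15.6%). With the mean of all its probe sets lin-26 read 0.07 there and missed the threshold. The log2 sums, in the order control, smo-1 RNAi, sdc-2(y93)+RNAi, were 12.19 to 12.52, 13.95 to 14.06 and 12.51 to 12.62 for intestine, 14.13 to 14.30, 14.74 to 14.87 and 14.10 to 14.23 for muscle, and 15.00 to 15.04, 14.65 to 14.78 and 14.97 to 15.06 for epidermis. The part of embryo stage and of cell type makeup in the levels of the cilium genes was not tested.

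**Figure D5:**
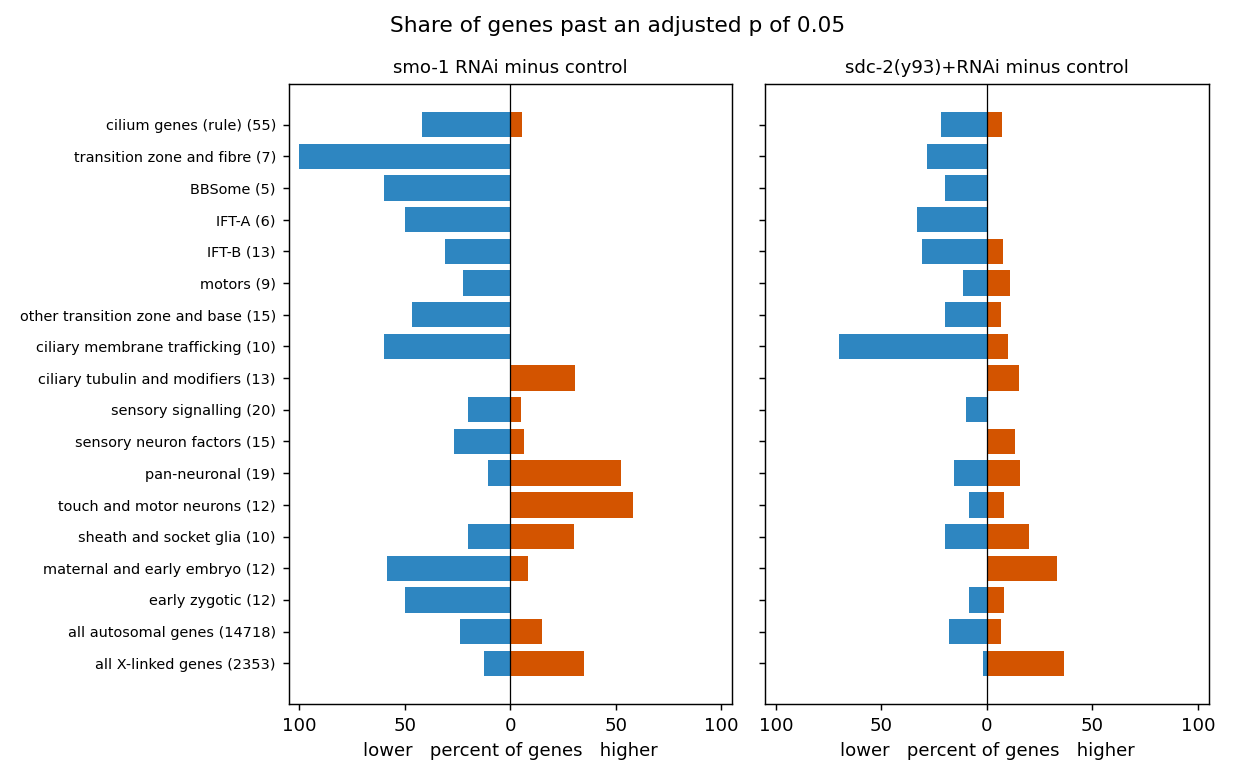
Share of genes in each list (percent, x axis) called higher (orange, to the right) or lower (blue, to the left) than control past an adjusted p of 0.05 in smo-1 RNAi (left) and sdc-2(y93)+RNAi embryos (right), with the number of measured genes in brackets. The 7 transition zone and fibre genes reach 100% lower on the left, where the tubulin, pan-neuronal and touch and motor neuron lists extend to the right; the shares are of the values as deposited, and with arrays centred on bright autosomal genes the cilium genes of the right panel turn from 4 higher and 12 lower to 15 higher and 3 lower.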

How the data were processed

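The deposited values are log2 signals. Per the submitters' processing notes, the authors made them by RMA with Affymetrix Expression Console; its version, its options and whether the 9 arrays were run jointly are not given here. Because RMA equalises the distributions of arrays, a shift common to all transcripts is lost, and differences of dim genes are compressed.

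Sample titles gave the groups and the replicate numbers. The array has 22625 probe sets: 77 controls, 887 with several genes, 895 not listed, and 20766 with 1 gene, 20701 of which matched the RefSeq gene table of WBcel235. Each of 17118 genes took its brightest probe set. limma 3.58.1 (R 4.3.3, lmFit and eBayes) was fitted to all 9 arrays without covariates, leaving 6 residual degrees of freedom. Tests were two-sided, and p-values were adjusted by Benjamini-Hochberg over every gene, or over every probe set for second probe sets. The steps were tested on simulated data. The number of arrays limits the precision.

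The members and the gene lists were chosen with earlier results of these data known, so their counts and medians are descriptions beside those of all genes, with no test of a list. Array values are given for the 8 highest and 8 lowest called members of each comparison with control whose arrays did not overlap control, for called X-linked members, for the 6 largest differences between the treated groups, and for daf-19, osm-3, che-3 and klp-20. Of each list, up to 3 genes with the smallest adjusted p in each comparison with control are named, and smo-1, sdc-2 and her-1 check the labels. The gene tba-9 is named outside this rule, to complete a count. Alternatives covered the probe set, dim genes, eBayes settings, a replicate block, the arrays fitted, scaling, normalization, an adjusted p of 0.01 and each array left out. Promoter sequences were not used here, so the planned search for X-box motifs was not made.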

Additional observations from a re-analysis of the deposited data

Results flagged for a closer look

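Outside the worm genes, 4 hybridisation controls differed between the groups. These transcripts of foreign origin are added at the hybridisation step. They read higher on the sdc-2(y93)+RNAi arrays than on the control arrays by 1.70 for bioB, 3.14 for bioC, 5.48 for bioD and 7.54 for cre (log2, 3 arrays each). The smo-1 RNAi arrays differed from control by -0.19 to 0.00 on the same 4. The part of this difference in the values of the cilium genes was not tested.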

How the results depend on the processing

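Over 19 alternative settings, the 39 calls of cilium genes whose array values are given above gave 719 values. Of these, 679 kept direction and side of the threshold, 40 kept direction but missed it, and 0 reversed. Called members without such values, among them che-10, daf-10, dyf-5, kap-1 and xbx-4, are not in this count. For calls of named genes outside the members, 2464 of 2583 values were kept, 118 missed the threshold and 1 reversed. The reversed call was unc-89 in sdc-2(y93)+RNAi embryos, at -0.18 with the mean of all its probe sets. That setting also moved the autosomal members' median between the treated groups to -0.13. Without probe sets that can bind related transcripts, 1 member was higher in sdc-2(y93)+RNAi embryos. With only genes above the median signal (33 members), smo-1 RNAi gave 1 higher, 15 lower and an autosomal median of -0.50; between the treated groups 0 were higher and the X-linked median was -0.61. Centring on autosomal genes gave medians of -0.34 (X-linked) and -0.46 (autosomal) with smo-1 RNAi, and between the treated groups 32 lower, with medians of -0.51 and -0.39. Centring on bright autosomal genes gave, with smo-1 RNAi, 5 higher and medians of -0.0037 and -0.13; in sdc-2(y93)+RNAi embryos, 15 higher, 3 lower and medians of 0.45 and 0.076; and between the treated groups medians of -0.37 and -0.25. The cause of these changes was not tested.

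With 1 array left out in turn, smo-1 RNAi gave 3 to 3 members higher, 19 to 23 lower, 7 to 7 transition zone members lower, X-linked medians of -0.26 to -0.12 and autosomal medians of -0.41 to -0.24. In sdc-2(y93)+RNAi embryos 3 to 6 were higher and 8 to 11 lower, with medians of 0.11 to 0.26 and -0.24 to -0.12. Between the treated groups 3 to 4 were higher and 13 to 18 lower, 4 to 6 of them X-linked, with medians of -0.34 to -0.28 and -0.20 to -0.17. The replicate numbers are shared between groups, but same-numbered arrays deviated together with correlations from -0.22 to 0.24, so the numbers do not pair the arrays. With the replicate block, 24 members were lower and 3 higher with smo-1 RNAi, and 10 lower and 4 higher in sdc-2(y93)+RNAi embryos, where ifta-2 and klp-11 missed the threshold (adjusted p = 0.064 and 0.053, limma).

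As a limit, a shift common to all transcripts is lost in RMA, differences of dim genes are compressed, and 2 members stayed at or below the level of the Bacillus controls. Probe sets of the same gene gave calls in both directions for che-10 with smo-1 RNAi (-0.33 and 0.59) and for klp-11 in sdc-2(y93)+RNAi embryos (-0.52 to 0.52).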
